A study of Mus musculus with 20 samples.

Results

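Development from the zygote in G2 to the 2-cell embryo in G2 was followed in mouse embryos of the strain label B6CASTF1, which the series design calls hybrids of the F1 generation. The comparison took 2 samples of 2-cell embryos against 3 samples of G2 zygotes, 5 of the 20 samples of the series, and it was read from the authors' deposited table of that step, chosen by its name. Of the 24411 gene symbols in the table, 16128 had an adjusted p-value and 9480 of those had a mean normalized count of at least 100 over the B6CASTF1 samples. Each sample was a pool of 10 to 15 oocytes or embryos, untreated, whose polyadenylated RNA was amplified by the Smart-seq2 method from oligo-dT primers. The eggs had matured in culture in M16 medium for 12 hours after release from dbcAMP, which holds oocytes in meiotic arrest, and the embryos grew in KSOM after fertilization in vitro under 5% oxygen. All groups used here share that treatment: the B6CASTF1 zygotes in G1 (3 samples), which give an earlier reference level, and the C57BL/6J samples of both stages (3 G2 zygote pools and 3 pools of 2-cell embryos), which give the same step in an inbred strain. The direction of the B6CASTF1 cross, the number of females and the day of each pool are not given in the sources used here, so p-values measure only the spread between pools, which may be technical. Pooled embryos also hide differences between embryos, and reads primed by oligo-dT can follow the length of the poly(A) tail as well as the number of molecules.

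A mouse zygote starts with RNA and protein that the oocyte stored, and transcribes little of its own genome. Embryos at the 2-cell stage carry out the main wave of zygotic genome activation, in which transcription starts across both parental genomes while stored maternal RNA is deadenylated and destroyed. The pioneer factors discussed for this step include the nuclear receptor NR5A2, named in the title of the series, the OBOX homeodomain proteins and DUX, and a short-lived set of transcripts with retroviral promoters marks the 2-cell stage.

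The deposited table holds no value for any single sample. The levels below are mean normalized counts per stage, worked out from the authors' mean over the strain and the log2 fold changes between stages, and they carry no replicate error of their own. The error given with a change is its standard error (SE) from that table, for a change between 2 and 3 samples. The mean count there also covers the G1 zygotes. The SE may therefore rest on the spread in all B6CASTF1 stages, and does not measure that of the compared samples alone. Counts are not divided by transcript length, so they do not compare amounts of RNA between genes, and where genes are ordered by count the order is that of normalized counts alone. A gene was called changed where the authors' DESeq2 test gave an adjusted p under 0.05 in their deposited table.

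Across all genes tested, 5346 rose and 4321 fell from G2 zygote to 2-cell embryo, or 33.1% and 26.8%. Of the 9480 genes with a mean of at least 100, 3973 rose and 3520 fell, or 41.9% and 37.1%, and 1987 were not called. The typical size was large: in the authors' deposited table the median log2 fold change was 3.02 among the risen genes of that abundance and -2.51 among the fallen. Rises reached further than falls, with 674 genes up by 6 or more log2 units and 133 down by as much. The median of all genes tested was 0.55 and that of genes with a mean of at least 100 was 0.21, so the zero of the scale lies below the middle of the genes. Subtracting 0.21 from every gene gave 4991 up and 4624 down, and subtracting 0.55 gave 4442 up and 5156 down, which turns the larger group from risen to fallen genes.

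**Figure D1:**
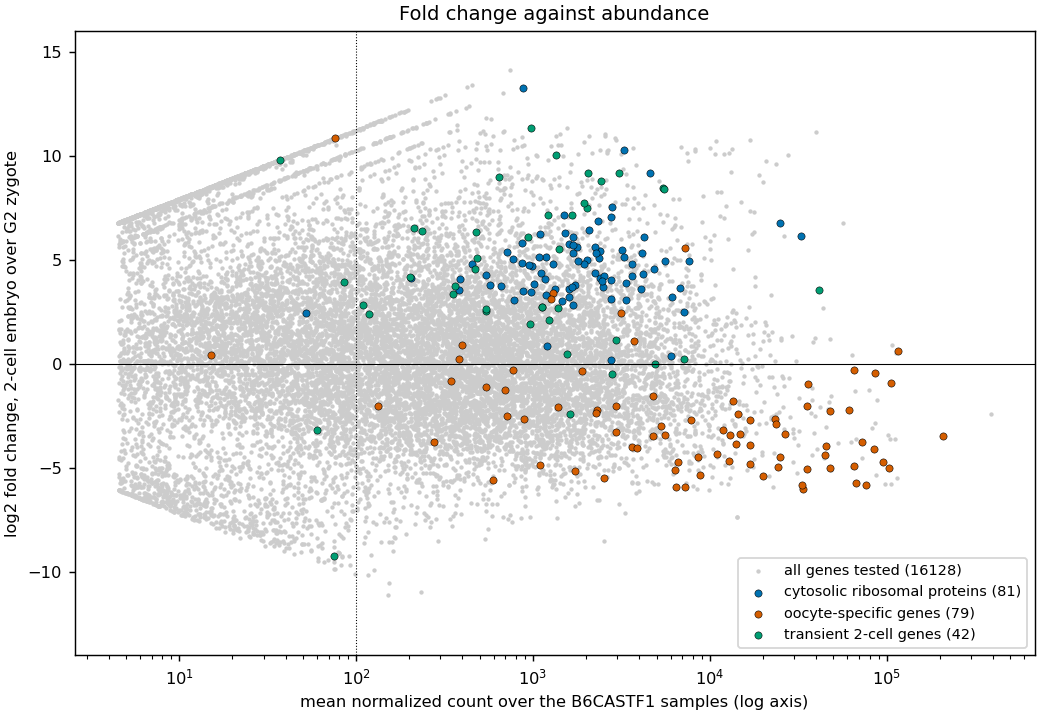
Each point is a gene tested, with its mean normalized count over the B6CASTF1 samples on a log axis and its log2 fold change from the authors' deposited table on the vertical axis; coloured points are members of 3 gene lists and the dotted line marks a mean of 100. Cytosolic ribosomal proteins lie above zero, with 77 of 81 called up, and oocyte-specific genes mostly below, with 64 of 79 called down; the slanted rows of points at the edges are genes with counts in few samples.

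The RNA pool was replaced to a large extent. Genes that fell by 3 or more log2 units (2015 genes) held 33.4% of the implied normalized count of G2 zygotes and 1.49% of that of 2-cell embryos. The 3265 genes that rose by 3 or more held 2.15% in G2 zygotes and 45.4% in 2-cell embryos. In G1 zygotes the same classes held 34.9% and 2.10%, close to their shares in G2. The pool also became less concentrated: the 50 most abundant genes held 25.6% of the count in G2 zygotes and 16.9% in 2-cell embryos. The classes were defined by this comparison, so their shares at the 2 stages compared describe it and do not test it.

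**Figure D2:**
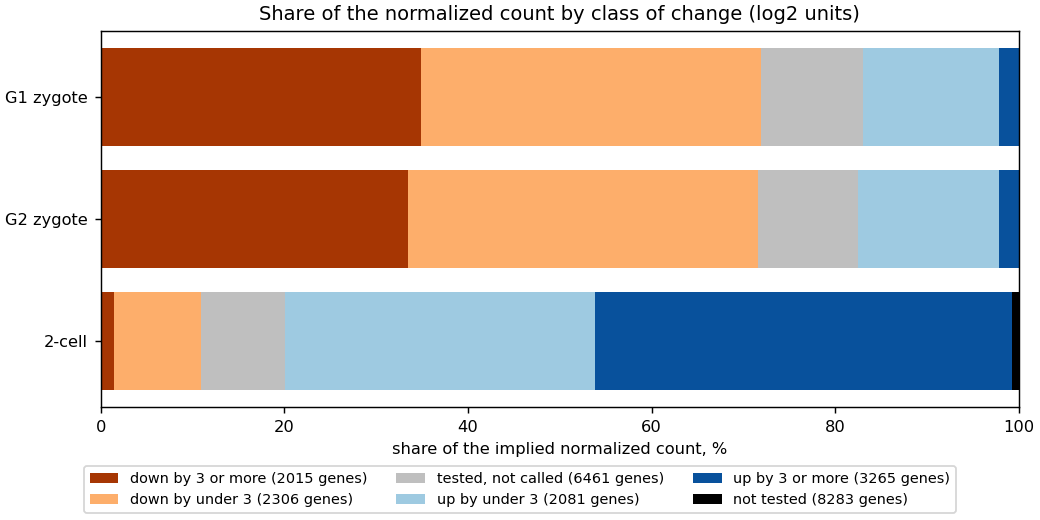
Bars divide the implied normalized count of each stage by how the gene changed from G2 zygote to 2-cell embryo, in log2 units. Fallen genes fill most of both zygote bars (33.4% of G2 for falls of 3 or more), and risen genes fill most of the 2-cell bar (45.4% for rises of 3 or more).

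A gain from near zero was common. Among risen genes, 1494 had an implied level under 10 in G2 zygotes; of these, 978 reached at least 100 in 2-cell embryos and 164 at least 1000. Loss to that level was rarer, with 856 fallen genes under 10 in 2-cell embryos, of which 289 had been at 100 or more and 8 at 1000 or more. The 10 gained genes with the highest 2-cell levels were Folr1, a folate receptor (6.74 to 11799.6), Pramel7 (6.26 to 11546), Guca1a (8.65 to 10667), Npl (9.29 to 10514), the lysosomal protease gene Ctsz (8.73 to 10430.2), Fam212a (4.78 to 10223), Gm1995 (5.08 to 10172), Gm2016 (7.55 to 9569.8), Frrs1 (7.72 to 8618) and the monocarboxylate transporter gene Slc16a6 (4.18 to 8294). All but Gm2016 had an SE of 0.51 or less in the authors' deposited table, against a change of 10.12 to 11.06 log2 units; Gm2016 changed by 10.31 with an SE of 1.43. Pramel7 belongs to a family of leucine-rich repeat genes with near-identical copies, among which reads may be shared. The lost genes with the highest zygote levels were Htr5a, a serotonin receptor (1692 to 8.79), Rhbdf1, a rhomboid-like membrane protein (1489 to 8.78), Dpy19l1 (1295 to 7.8), Pabpn1l, an embryonic poly(A)-binding protein (1122 to 9.65), and the olfactory receptor gene Olfr288 (1052 to 6.88). Psg20, Serpinb12, Cyp2c53-ps, Dpys and Elp3 followed, each from 889 to 1042 in G2 zygotes down to 2.92 to 9.44.

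Among named genes present at 10 or more at both stages, the 10 steepest rises were all near 10 log2 units. Timd2, which encodes a cell-surface receptor of the TIM family, went from 70.8 in G1 and 38.8 in G2 zygotes to 67737 in 2-cell embryos. Its log2 fold change in the authors' deposited table was 10.77 ± 0.33 (SE). The others were Pdxk, the kinase that makes active vitamin B6 (10.45 ± 0.32), Cd63, a lysosomal tetraspanin (10.38 ± 0.87), Wdr77, the partner of the arginine methyltransferase PRMT5 (10.37 ± 0.35), Ctsc, a lysosomal protease (10.35 ± 0.25), Vimp, a selenoprotein of the endoplasmic reticulum (10.32 ± 0.30), Rps19, a ribosomal protein (10.30 ± 0.77), Obox6 (10.25 ± 0.29), Nop16, a nucleolar protein (10.14 ± 0.37), and Spic, an ETS-family factor (10.14 ± 0.31), as the log2 fold change and SE of the authors' deposited table. The 10 steepest falls were smaller, from -7.43 ± 0.33 for the zinc transporter gene Slc30a3 to -6.43 ± 0.37 for the signalling adaptor gene Lcp2 in the same authors' deposited table. Gpr1, a chemerin receptor (6247 to 43.6), Casp8, the initiator caspase of death receptors (3216 to 27.9), Sclt1, a centriolar appendage protein (3994 to 37.2), Olfr976, Psg17, Fam90a1a, Cd200 and the GDNF co-receptor gene Gfra1 lay between them. Several of these RNAs had risen before they fell: Casp8 went from 1376 in G1 to 3216 in G2 zygotes and Htr5a from 324 to 1692, both past the authors' threshold for that earlier step, which shares the G2 zygote samples with this one.

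Changes in normalized count put other genes first. Map1lc3b, the LC3B protein of autophagosome membranes, gained most, from 2030.2 to 219437, followed by the predicted gene B020004C17Rik (70.6 to 159386), the ribosomal stalk gene Rplp0 (1780.1 to 125718), Sp110, a nuclear body protein whose locus holds many near-identical copies (11408 to 135341), and Prps1, the enzyme that makes phosphoribosyl pyrophosphate for nucleotide synthesis (105 to 110263). Ccdc82 lost most, from 770573 to 145414, after having risen from 168646 in G1 zygotes. The kinase cofactor gene Tcl1 (227242 to 20164), the histone reader gene Spin1 (139659 to 11379), Zbed3 (127448 to 2845) and Mphosph6, an exosome cofactor (128049 to 10283), came next. In G1 zygotes they stood at 314227 for Tcl1, 177485 for Zbed3, 149740.0 for Spin1 and 145262 for Mphosph6, and of the 4 only Tcl1 had changed between G1 and G2 by the authors' test.

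**Figure D3:**
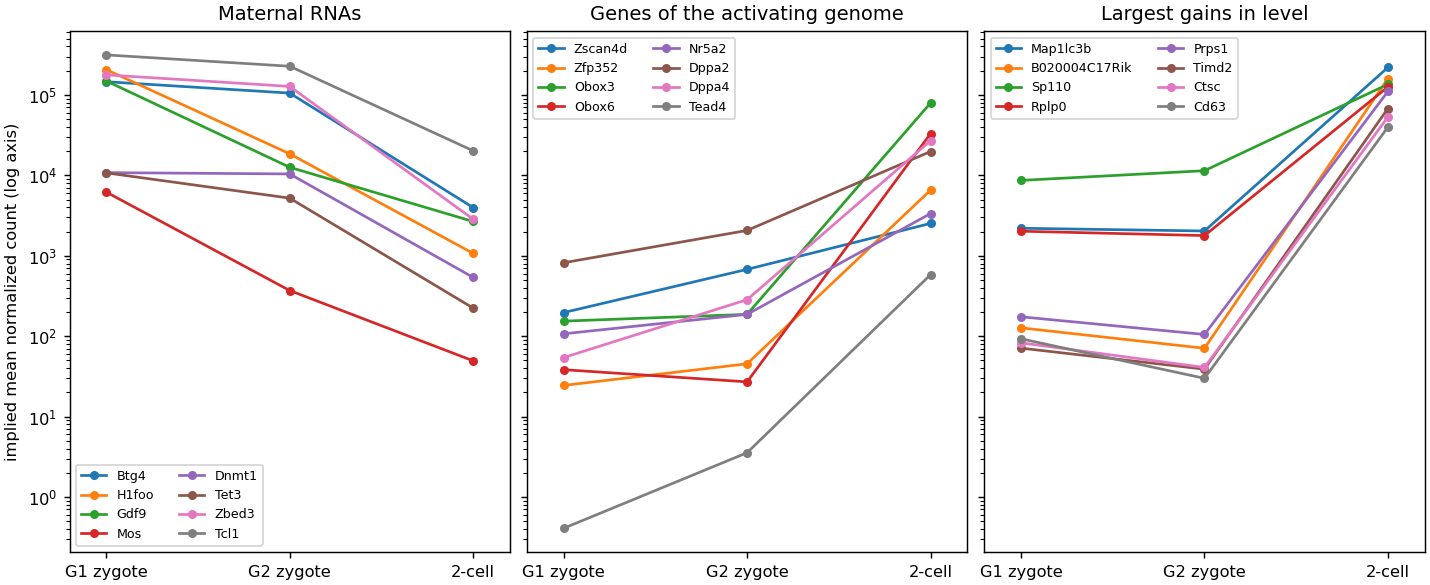
Lines join the implied mean normalized count of 24 genes in G1 zygotes, G2 zygotes and 2-cell embryos on a log axis, with no error because the table holds none for a level. Maternal RNAs are lower at each later stage, with Btg4 at 145846, 105262 and 3970; genes of the activating genome and those with the highest gains climb after the G2 zygote, with Obox3 at 154, 186 and 79265.

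The activators came first among the groups of interest. Of 45 listed transcription factors of genome activation that were tested, 25 rose and 8 fell, with a median of 2.03 in the authors' deposited table against 0.55 over all genes tested. Nr5a2 (chromosome 1, 136842571 to 136960448, minus strand, GRCm38) was at 107 in G1 zygotes, 187 in G2 zygotes and 3341 in 2-cell embryos, and the authors' deposited table gives 4.16 ± 0.56 (adjusted p = 5.94e-13, DESeq2). Its rise was within the common range of this step, since 1998 genes with a mean of at least 100 rose by 3 or more. The OBOX family split: the 2-cell members Obox3 and Obox6 rose from 186 to 79265 and from 27 to 32932, while the maternal members Obox1 (108134 to 2685), Obox2 (109652 to 1972), Obox5 (100432 to 11810.2) and Obox7 (13079 to 4358) fell. Obox members are close paralogs in 1 cluster, so part of their reads could be assigned to the wrong member. Gabpa, an ETS factor, rose from 43.6 to 47828, and Yy1 from 15.7 to 1173. Dppa2 and Dppa4, paired chromatin proteins that act upstream of the 2-cell programme, rose from 2063 to 19754 and from 284 to 26955, and both had already been higher in G2 than in G1 zygotes (818 and 54.1). Kdm5b, a demethylase of histone H3 lysine 4, rose from 369 to 14039. The orphan receptor Esrrb, which binds the same motif as NR5A2, fell from 328 to 31.3. Subunits of NF-Y were unequal: Nfyb rose from 620.4 to 7935, Nfyc from 2758 to 3817, and Nfya was at 627 and 850.1 without passing the test.

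Nuclear receptors were more often down than up. Of 29 tested, 7 rose and 13 fell, with a median of -1.02 in the authors' deposited table. The fallen receptors included Nr1d1, a circadian repressor (2539.8 to 103), the estrogen receptor gene Esr2 (3011 to 161), Rora (2912 to 307) and Pparg (566 to 55.2). Besides Nr5a2, the risen receptors with the smallest p were Nr2c2, an orphan receptor (21.1 to 3480.1), and Nr1h3, a sterol sensor (4.15 to 567). Enlarging each SE 1.5 times left 3 of the 7 rises.

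Transient 2-cell genes, chosen as markers of this stage, mostly rose: 32 of 42 tested were up and 3 down, with a median of 4.05 in the authors' deposited table. Zscan4d, a telomere-linked zinc-finger protein, was at 196, 676 and 2523 in the 3 stages, and Zfp352, a zinc-finger gene of the 2-cell stage, at 24.4, 45.3 and 6537. For Zfp352 the authors' deposited table gives 7.17 ± 1.2 (SE, adjusted p = 4.93e-09, DESeq2) and for Zscan4d 1.90 ± 0.54 (adjusted p = 9.34e-04). Usp17lb, a deubiquitinase of a multicopy family, rose from 60.6 to 21610.3, and the gene AF067063 from 64.5 to 21895. Ubtfl1 rose from 5.11 to 5359, and Tdpoz1, a BTB-domain gene of a tandem array, from 1.5 to 3881. Some members did not rise. Dux was at 2.08 in G1 zygotes, 147 in G2 zygotes and 16 in 2-cell embryos. Its log2 fold change of -3.20 ± 1.57 in the authors' deposited table did not pass the test (adjusted p = 0.066, DESeq2). It did pass after recentring by 0.21 (adjusted p = 0.049, normal test). Duxbl1 fell from 108 in G2 zygotes to an implied level of 0.18, Zfp345 fell from 3115 to 591, and Tcstv1 fell from 2949 to 2116. The fall of Tcstv1 was small (-0.48 ± 0.20 in the authors' deposited table) and was lost at an adjusted p under 0.01 and with SE enlarged 1.5 times. Duxbl2 and Duxbl3 carry identical values, 539.8 and 3625, as near-identical copies would, and count as a single measurement. Most of these families are multicopy, and assignment of reads among copies is uncertain. Arg2, Cphx1, Cphx2 and D5Ertd577e had high zygote levels and were not called, for example Arg2 at 9592 and 11144.

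Pluripotency factors rose in 19 of 30 and fell in 5, with a median of 3.10 in the authors' deposited table. Fbxo15 rose from 837 to 68446, Dppa5a from 571 to 27140.4, Klf4 from 43 to 475, Klf5 from 22.7 to 616, Nanog from 140.2 to 1075, and Zfp42, known as Rex1, from 13.4 to 2204. The core factor Pou5f1 fell from 541 to 129 (-2.07 ± 0.49 in the authors' deposited table, adjusted p = 5.77e-05, DESeq2), and Il6st, Stat3, Lin28a and Esrrb also fell. Sox2 was at 17.8 and 3.0 and was not called. Lineage regulators of the trophectoderm and inner cell mass were often low and mostly not called, with 9 up and 3 down of 30. The share of rises (30%) was near the 33.1% of all genes tested, and that of falls (10%) was under their 26.8%. Tead4, the trophectoderm factor, rose from 3.55 to 581, Hand1 from 9.28 to 674, and Wwtr1, the TAZ co-activator, from 149.8 to 1235. Gata3 fell from 1634 to 133, Amotl1 from 322 to 29.3, and Yap1 from 1153 to 552. The fall of Yap1 was lost with SE enlarged 1.5 times.

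Promoter windows are shown here because the risen genes include factors that read short DNA motifs. RefSeq windows (GRCm38.p6, 250 bases before to 50 after the start of the gene) were matched for 7668 of 9480 genes with a mean of at least 100, or 80.9%. The letters GGATTA, the core read by OTX-type homeodomains to which OBOX proteins belong, occurred on either strand in 7.43% of windows of risen genes, 5.35% of fallen genes, 4.29% of genes not called and 7.16% of all 27025 RefSeq windows. In the windows of genes up by 3 or more log2 units the share was 8.77%. Below are stretches of up to 86 bases around a match, on the strand of the gene and ending at or before the start site, for 5 risen genes picked after their values were seen, with the match in capitals (TAATCC is GGATTA on the other strand).
Prps1: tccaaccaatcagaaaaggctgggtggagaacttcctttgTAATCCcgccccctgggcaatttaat
Zfp352: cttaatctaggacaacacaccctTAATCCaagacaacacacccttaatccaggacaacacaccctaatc
Tdpoz1: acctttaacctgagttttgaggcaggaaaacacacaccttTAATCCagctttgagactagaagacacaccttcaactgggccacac
Guca1a: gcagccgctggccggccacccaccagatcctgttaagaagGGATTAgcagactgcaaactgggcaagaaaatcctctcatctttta
Cd63: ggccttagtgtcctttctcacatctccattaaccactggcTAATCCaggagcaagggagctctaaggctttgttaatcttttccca
These stretches lie at chrX:140456537-140456602 (Prps1, plus strand), chr4:90218570-90218638 (Zfp352, plus strand), chr3:93676356-93676441 (Tdpoz1, minus strand), chr17:47400618-47400703 (Guca1a, minus strand), chr10:128909139-128909224 (Cd63, plus strand), each before the start of the RefSeq model; that of Cd63 lies inside the wider GENCODE M21 span of the gene, outside its exons, and the others lie outside the span of their gene. The match began -26, -227, -118, -57, -166 bases from the start site in the same order. Zfp352 held 9 matches in its window, several of them in a repeated unit. A match describes the letters and shows no binding.

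The letters CAAGGTCA, the extended nuclear receptor site bound by NR5A2 and ESRRB, occurred in 48 of 3217 windows of risen genes (1.49%), 20 of 2821 of fallen genes (0.709%), 18 of 1630 of genes not called (1.10%) and 1.53% of all RefSeq windows. Risen genes thus held these letters about as often as all RefSeq windows did, and the lowest share was that of fallen genes. The C form of the site, CAAGGCCA, differed less between risen and fallen genes. It was in 1.77% of risen, 1.42% of fallen and 1.60% of uncalled windows, below the 2.41% of all RefSeq windows. No test was run on these shares. The 4 risen genes with the largest log2 fold change and a match to CAAGGTCA are shown, in the same form, with TGACCTTG being the other strand.
Esp24: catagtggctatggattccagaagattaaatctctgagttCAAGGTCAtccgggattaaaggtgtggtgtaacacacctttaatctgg
Tbxa2r: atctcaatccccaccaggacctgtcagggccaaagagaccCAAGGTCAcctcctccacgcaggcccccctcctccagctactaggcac
Defb42: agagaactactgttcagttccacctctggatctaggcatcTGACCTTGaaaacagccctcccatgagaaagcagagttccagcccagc
Amhr2: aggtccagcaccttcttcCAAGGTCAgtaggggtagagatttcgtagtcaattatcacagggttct
They lie at chr17:39036503-39036590 (Esp24, plus strand), chr10:81328165-81328252 (Tbxa2r, plus strand), chr14:63046832-63046919 (Defb42, plus strand), chr15:102445117-102445182 (Amhr2, plus strand), with the match beginning -152, -63, -119, -232 bases from the start. Tbxa2r encodes the thromboxane receptor, Amhr2 the receptor of anti-Müllerian hormone, Esp24 an exocrine peptide and Defb42 a defensin; their log2 fold changes in the authors' deposited table were 12.33 for Esp24, 10.90 for Tbxa2r, 10.64 for Defb42 and 10.55 for Amhr2. The promoters of fallen genes differed in base composition as well: the median ratio of observed to expected CpG was 0.80 for risen genes, 0.73 for fallen genes and 0.59 for genes down by 3 or more. That ratio was 0.80 for genes not called and 0.39 for all RefSeq windows. The ETS core CCGGAAG, bound by GABPA among others, was in 22.9% of risen, 15.1% of fallen and 21.4% of uncalled windows, and in 10.1% of those down by 3 or more, against 9.12% of all RefSeq windows; it contains a CpG. The E-box CACGTG was in 11.6%, 8.79% and 11.7% of the first 3 classes and the TATA letters TATAAA in 7.65%, 7.90% and 6.75%.

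The protein synthesis machinery rose as a block. All 77 calls among 81 cytosolic ribosomal protein genes were rises, with a median of 4.72 in the authors' deposited table and quartiles of 3.70 and 5.41. Rpsa rose from 59.4 to 10917, Rps13 from 258 to 8807, Rps3 from 31 to 18119.5 and Rpl41 from 898 to 97071. The 4 that were not called were Rpl17 (3605 and 4086), Rps27l (5558 and 7162), Rpl22l1 (29.4 and 158) and Rpl26 (83.8 and 1404), named after their values were seen; Rps27l and Rpl22l1 are paralogs of the standard subunits. Together the list took 0.172% of the implied count in G1 zygotes, 0.229% in G2 zygotes and 3.51% in 2-cell embryos. Ribosomal protein genes have many processed pseudogenes, which can take part of their reads. No member had a negative change at an unadjusted p under 0.05 either. In C57BL/6J, 76 of 81 rose and 0 fell in the authors' deposited table of that step, made with DESeq2, and again 0 fell at an unadjusted p under 0.05.

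Ribosomal protein genes start in a run of pyrimidines. The letters CTTTCC on the strand of the gene within 15 bases of the start site were in 8 of 61 matched windows of this list (13.1%), against 1.45% of the windows of all genes with a mean of at least 100. Stretches of 90 bases, 60 before the start site and 30 after it, are shown for the 4 members with the smallest p that hold the letters.
Rpl15: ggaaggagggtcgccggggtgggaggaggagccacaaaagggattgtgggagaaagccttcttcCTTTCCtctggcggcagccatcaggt
Rpl35: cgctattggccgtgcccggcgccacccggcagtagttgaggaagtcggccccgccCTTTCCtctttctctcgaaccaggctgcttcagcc
Rps27: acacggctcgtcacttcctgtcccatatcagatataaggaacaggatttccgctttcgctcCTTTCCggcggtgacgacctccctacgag
Rpl13a: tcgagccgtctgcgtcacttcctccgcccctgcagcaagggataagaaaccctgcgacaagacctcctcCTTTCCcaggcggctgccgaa
They lie at chr14:18270957-18271046 (Rpl15, minus strand), chr2:39005102-39005191 (Rpl35, minus strand), chr3:90213619-90213708 (Rps27, minus strand), chr7:45128716-45128805 (Rpl13a, minus strand), each across the start of the gene into its 5′ exon. Most members without these letters rose as well.

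Ribosome assembly moved with it: 79 of 85 nucleolar and assembly genes rose and 1, Rrp1b, fell, with a median of 3.41 in the authors' deposited table. Nop16 rose from 26.2 to 29522, Polr1c, a subunit of RNA polymerases I and III, from 186 to 21137, and Ebna1bp2, a nucleolar assembly factor, from 773 to 24409.7. Their list share rose from 0.641% in G2 zygotes to 2.80%. Translation factors rose in 45 of 54 and fell in 4, with Eif4e, the cap-binding protein, from 19879 to 128140.0 and Eif6, a factor of large-subunit maturation, from 1683 to 25526. The exceptions included Eif4e1b, the oocyte cap-binding protein, which fell from 3682 to 92. Eif4e3 fell from 8377 to 493 and Eif1b from 7173 to 3199. Aminoacyl-tRNA synthetases and partners rose in 13 of 23 and fell in 3, with Rars and Aimp2 up and Lars, Farsb and Gars down. Mitochondrial ribosomal proteins were less uniform than cytosolic ones, with 41 up and 16 down of 77: Mrps6 rose from 408 to 9696 and Mrpl35 fell from 3386 to 468.

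Genes of transcription and splicing mostly rose. Of 70 genes of RNA polymerase II and the general factors, 47 rose and 9 fell, led by the shared polymerase subunit gene Polr2h (230.3 to 18813) and the elongation factor gene Supt4a (1402 to 26284). Taf4b rose from 381 to 3976. Tbpl2, the oocyte form of the TATA-binding protein, fell from 660.5 to 4.87, while Tbp rose from 3976 to 9751. Gtf2b, the initiation factor TFIIB, fell from 15113 to 1962. Spliceosome genes rose in 48 of 68 and fell in 7, with Snrpc, a U1 component, from 266 to 23869.5 and Srsf5 from 1304 to 15949. Mediator was mixed, with 17 up and 9 down of 31: Med29 rose from 101 to 24394 and Med30 fell from 6029.5 to 288.

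Protein folding and turnover rose in part. The CCT chaperonin and prefoldin rose in 12 of 14, where the prefoldin genes Pfdn4 (7455 to 326) and Pfdn1 (1588 to 619) were the 2 falls. Proteasome genes rose in 34 of 46 and fell in 7, with Psmb1 from 613 to 12902 and Psma7 from 13514 to 1693. Chaperones rose in 24 of 41 and fell in 7. Hspa1a, the inducible HSP70 gene known as an early marker of activation, was at 1.05 in G1 zygotes, 0.165 in G2 zygotes and 478 in 2-cell embryos. Hspa8, the constitutive form, rose from 2617 to 35792, and Hspa5, the endoplasmic reticulum form, from 1593 to 30291. The maternal side held Dnajb4 (29229 to 488), Hsp90aa1 (67909 to 27413) and the heat shock factor gene Hsf1 (1624 to 523), all of which fell.

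**Figure D4:**
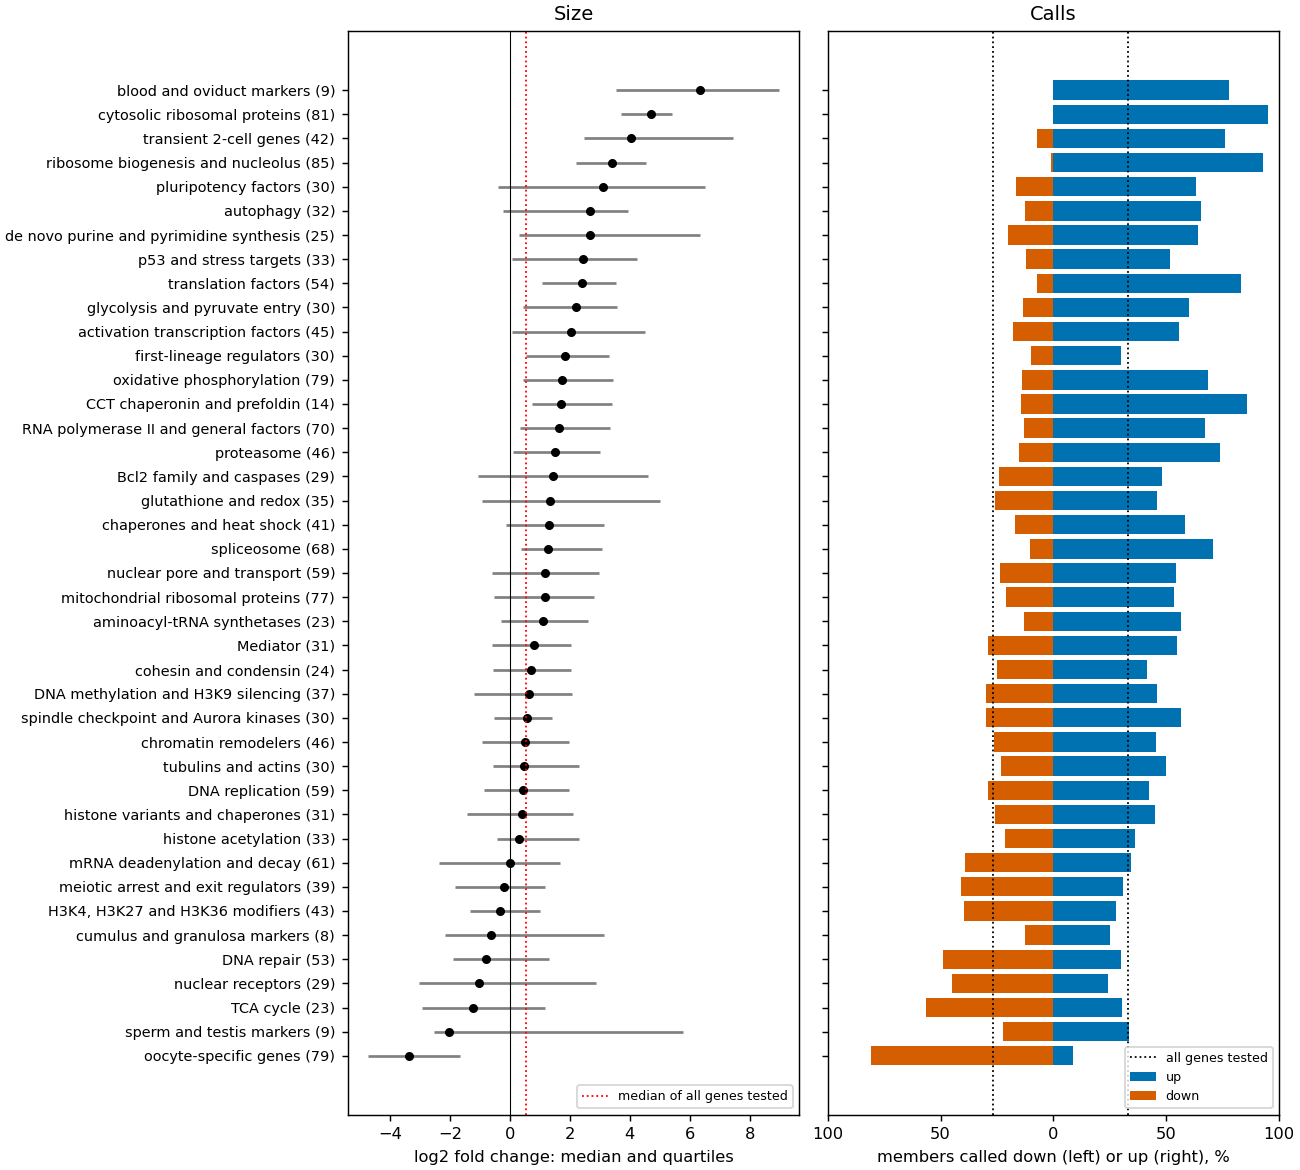
On the left, points are the median log2 fold change of the members tested in each of 41 gene lists, lines their quartiles, and the dotted line the median of all genes tested (0.55); on the right, bars are the percent of members called up and down, with dotted lines at 33.1% and 26.8%. Cytosolic ribosomal proteins (median 4.72) and oocyte-specific genes (median -3.36) lie near opposite ends.

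Metabolic lists differed in their counts. Oxidative phosphorylation genes rose in 54 of 79 and fell in 11, with Atp5g1, a subunit of the ATP synthase ring, from 685 to 23055. The TCA cycle leaned down, with 7 up and 13 down of 23 and a median of -1.24 in the authors' deposited table. Within it, Sdha (3656 to 289), Sdhc (5174 to 158) and Me1, the malic enzyme (15243 to 796), fell, and Mdh2 (456 to 20176), Idh3g (176 to 6597) and Idh3b (36.4 to 1877) rose. Sdha and Sdhc encode subunits of complex II, which belongs to both lists. Isoforms of isocitrate dehydrogenase went apart: Idh1, the cytosolic form, fell from 991 to 33.1, and Idh2, the mitochondrial form, rose from 2.64 to 584. Glycolysis and pyruvate entry genes rose in 18 of 30 and fell in 4. Gapdh rose from 1253 to 12563 and Pdhb, of pyruvate dehydrogenase, from 1836 to 16002, whereas Ldhb, the lactate dehydrogenase of oocytes, fell from 113186 to 10488 and Dlat from 1230.2 to 115. The share of the list in the implied count went from 0.725% to 0.418% while most of its members rose.

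Nucleotide synthesis rose in 16 of 25 genes and fell in 5, with a median of 2.66 in the authors' deposited table. Prps1, Ppat, which commits phosphoribosyl pyrophosphate to purines (39.3 to 42587), and Impdh2, of guanine nucleotide synthesis (107 to 26494), had the smallest p, and the share of the list went from 0.191% to 1.14%. Dhodh, of pyrimidine synthesis, fell from 406 to 51.8, Mthfd2 from 4221 to 566 and Adss from 7295 to 1384. Redox genes were mixed, with 16 up (45.7%) and 9 down (25.7%) of 35, against 41.9% and 37.1% of all genes with a mean of at least 100. Gpx1 rose from 194 to 8818, and Glrx, a glutaredoxin, fell from 6165 to 89.3. Autophagy genes rose in 21 of 32 and fell in 4. Besides Map1lc3b, the lysosomal membrane gene Lamp2 rose from 320.1 to 44562 and Gabarapl2 from 736 to 28003, and Atg5, which conjugates to ATG12, fell from 20009 to 3971.

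The maternal programme fell. Of 79 oocyte-specific genes tested, 64 fell and 7 rose, with a median of -3.36 in the authors' deposited table and quartiles of -4.73 and -1.66. Their share of the implied count was 13.8% in G1 zygotes, 11.7% in G2 zygotes and 2.19% in 2-cell embryos. Bcl2l10, an oocyte survival factor of the BCL2 family, fell from 75614 to 1346, Oas1e from 40108 to 713, and E330034G19Rik from 120013 to 3779. The growth factor gene Gdf9 had lost most of its RNA by G2 (149021, 12579 and 2665 in the 3 stages), as had H1foo, the oocyte linker histone (206243, 18493 and 1068). Bmp15, the partner of GDF9, stood at 40087, 53932 and 1608. In the authors' deposited table H1foo fell by 4.11 on the log2 scale with an SE of 0.25, and Gdf9 fell by 2.24 with an SE of 0.20. Zona pellucida genes went apart: Zp1 fell from 1015 to 238 and Zp2 from 2925 to 632, while Zp3 rose from 2005 to 4252, a level under its 5069 in G1 zygotes. The other rises were Dppa5a, Cd9, the tetraspanin of sperm-egg fusion (1643 to 9039), Taf4b, Ddx4, a germline helicase (418 to 3594), Sohlh1 (0.165 to 303) and Dppa3, the abundant maternal chromatin protein also called Stella (100995 to 155995). Subunits of the subcortical maternal complex fell by unequal amounts, with Ooep from 11840.5 to 349, Nlrp5 from 12186 to 1877, Tle6 from 3119 to 773 and Padi6 from 4682 to 1621; Khdc3 was at 312 and 575 and was not called. The Fbxw, Nlrp, Oas1, Oog and Tcl1b genes of this list are tandem paralogs that may share reads.

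RNA decay factors changed in both directions. Of 61 tested, 21 rose (34.4%) and 24 fell (39.3%), with a median of 0.01 in the authors' deposited table. Of all genes with a mean of at least 100, 41.9% rose and 37.1% fell. Btg4, the adaptor that recruits the CCR4-NOT deadenylase to maternal RNA, fell from 105262 to 3970.2 (-4.73 ± 0.22 in the authors' deposited table), and the deadenylases Cnot7 and Cnot6l fell from 22661 to 3162 and from 9616 to 510.4. The paralog Cnot8 rose from 2709.6 to 20129, the scaffold gene Cnot1 from 1194 to 6184, the m6A reader gene Ythdf2 from 1177 to 7202, and the exosome nuclease gene Exosc10 from 424 to 3092. The poly(A)-binding proteins changed over: Pabpc1l and Pabpn1l, the oocyte forms, fell to 24.2 and 9.65, and Pabpc1 rose from 75.9 to 3845. The germline RNA-binding gene Dazl fell from 36139.9 to 3077, and Zcchc11, a terminal uridylyltransferase, rose to 146.

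Cell cycle genes changed in both directions. Among 39 regulators of meiotic arrest and exit, 12 were up and 16 down, against 41.9% and 37.1% of all genes with a mean of at least 100. Mos, which keeps the egg arrested in metaphase as a kinase upstream of MAPK, went from 6179.8 in G1 to 369 in G2 zygotes and 49.3 in 2-cell embryos. Wee2, the oocyte inhibitor of CDK1, fell from 13550.1 to 787, and Wee1, the somatic form, rose from 77.2 to 830.3. Ccnb2 fell from 6829 to 1256, while Ccnb1 rose from 84755 to 160596, Ccna2 from 4218 to 14082, Ccne1 from 120.3 to 6781 and Cdk1 from 2673 to 27617. The phosphatases divided too: Cdc25c rose from 54.9 to 4189 and Cdc25b fell from 557 to 245. Cdc20, the activator of the anaphase-promoting complex, rose from 3298 to 29351 and its relative Fzr1 fell from 374 to 60.9.

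Aurora kinases and the spindle checkpoint rose in 17 of 30 and fell in 9, with a median of 0.57 in the authors' deposited table. Among the 29 tested in C57BL/6J, 4 rose and 6 fell, with a median of 0.21. The meiotic kinase gene Aurkc fell from 12515 to 6586, Aurka rose from 5827 to 10698 and Aurkb from 347 to 1699. Mad2l1bp, which disassembles the checkpoint complex, rose from 1418 to 99231, whereas the kinetochore gene Nuf2 fell from 10666 to 1037. Replication genes rose in 25 of 59 (42.4%) and fell in 17 (28.8%), against 41.9% and 37.1% of all genes with a mean of at least 100. Cdc45 rose from 2814 to 19524 and Rrm2, of ribonucleotide reductase, from 2186 to 11832, and Orc5 fell from 21332 to 1025. Of the topoisomerase II isoforms, Top2b fell from 588 to 3.9 and Top2a rose from 878 to 5854. Cohesin and condensin genes rose in 10 of 24 (41.7%) and fell in 6 (25%), a share of rises near the same 41.9%. Pds5a was up and the condensin subunits Ncapg, Ncapd3 and Smc4 were down. DNA repair leaned down, with 16 up and 26 down of 53 and a median of -0.81 in the authors' deposited table: the checkpoint kinase gene Chek1 fell from 29682 to 1503, and Chek2 rose from 68.9 to 4770.1.

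Chromatin genes changed in both directions. In the DNA methylation and H3K9 silencing list, 17 of 37 rose (45.9%) and 11 fell (29.7%). Of all genes with a mean of at least 100, 41.9% rose and 37.1% fell. The maintenance methyltransferase Dnmt1 fell from 10399.8 to 537, its partner Uhrf1 from 3182 to 194, the imprint protector Zfp57 from 28816 to 846, and the dioxygenase Tet3, which oxidizes 5-methylcytosine in the zygote, from 5199.5 to 223. Tet1 rose from 200.1 to 1266, and the H3K9 demethylase gene Kdm4c from 4.79 to 7764. In the authors' deposited table Dnmt1 fell by 4.27 on the log2 scale with an SE of 0.16 and Tet3 fell by 4.54 with an SE of 0.27. Modifiers of H3K4, H3K27 and H3K36 were up in 12 and down in 17 of 43; the share down (39.5%) was near the 37.1% of all genes with a mean of at least 100. The H3K4 demethylase genes Kdm5a (30.7 to 2933) and Kdm5b rose; the polycomb genes Ezh2 (7933 to 3046) and Eed (8221 to 3909) fell, and Suz12 rose from 3771 to 5089.6. Pcgf5 rose from 179 to 14905.

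Remodelers rose in 21 of 46 (45.7%) and fell in 12 (26.1%), against 41.9% and 37.1% of all genes with a mean of at least 100. Smarca2 fell from 5655 to 1829.5 and its alternative ATPase Smarca4, called BRG1, rose from 416 to 2543; Smarcc1 rose from 144 to 3680.0 and Chd1 from 305 to 5859.6. Acetylation genes rose in 12 of 33 (36.4%) and fell in 7 (21.2%), both under those 41.9% and 37.1%. Over all genes tested, whatever their mean, the shares were 33.1% and 26.8%. Hdac1, a main deacetylase of early embryos, rose from 193 to 25109, Hdac2 was at 1732 and 1604 and was not called, and Brdt fell from 27554 to 9907. Histone variants and chaperones rose in 14 of 31 (45.2%) and fell in 8 (25.8%), a share of rises near the same 41.9%. H2afz rose from 880.3 to 66447, Set from 1026 to 34711, and H3f3a from 15610.5 to 44738. Npm2, a maternal nucleoplasmin, fell from 17769 to 1687 and the stem-loop binding protein gene Slbp from 89778 to 12686.

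Stress and death genes changed in both directions. For the lists of this paragraph, the background was 33.1% up and 26.8% down over all genes tested. Among genes with a mean of at least 100 it was 41.9% and 37.1%. Targets of p53 and stress rose in 17 of 33 (51.5%) and fell in 4 (12.1%). Among them Cdkn1a, the inhibitor p21, rose from 58.5 to 5398, Gadd45b from 82 to 14606 and Tigar from 450.1 to 8553. Trp53 itself was at 1137 and 1363 and was not called, and its inhibitor Mdm4 fell from 91279 to 37831. In the list of the Bcl2 family and caspases, 14 of 29 rose (48.3%) and 7 fell (24.1%). Mcl1, a survival factor, rose from 31.7 to 2409, and Bid, a death effector, from 10.8 to 1708, against the falls of Bcl2l10, Casp8 and Birc3 (15775 to 1412). Tubulin and actin genes rose in 15 of 30 (50%) and fell in 7 (23.3%). Tubb5 was up (268 to 5341), Tuba1a up (24.1 to 2528) and Tubb3 down (2016 to 293). Recentring by 0.21 raised the falls of that list to 11. Nuclear pore and transport genes rose in 32 of 59 (54.2%) and fell in 14 (23.7%). The exporter gene Xpo1 rose from 432 to 15521. Kpna7, the oocyte importin alpha, fell from 9141 to 345 while Kpna1 rose from 6.57 to 7198.

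Markers of other cells were low with a few exceptions. Of 8 tested cumulus and granulosa markers, 2 rose (Amhr2 and Ptgs2) and Cyp19a1 fell from 1338 to 24.5; their summed level was 0.00846% of the count in G2 zygotes and 0.00747% in 2-cell embryos. Fshr, which defines granulosa cells, was at 49.7 and 34.5 and was not called. Sperm and testis markers summed to 0.00958% and 0.00597%. Of 9 blood and oviduct markers, 7 rose and 0 fell by the authors' DESeq2 test (0 fell at an unadjusted p under 0.05), and their summed share went from 0.00208% to 0.046%. The epithelial adhesion gene Epcam, which early embryos also express, rose from 77.8 to 6336, and the alpha globin gene Hba-a1 from 5.25 to 2858; Lyz2 reached 82.1, Cd68 365 and Pecam1 736. In C57BL/6J 4 members had an adjusted p and 1 of them rose; Hba-a1 had none there, with implied levels of 81.1 and 3827. The part of any other cell in the changes above was not tested. Fewer RNA molecules per embryo and a smaller share of the library cannot be told apart in these normalized counts.

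Gene structure went with the direction. Among genes with a mean of at least 100 and a GENCODE M21 model (9134 of 9480), the longest protein-coding transcript of a gene had a median length of 2727 bases in risen genes, 3210 in fallen genes and 3260 in genes not called, with the longest transcript of any kind used where none was protein-coding. The share of genes that rose was lower in each longer one of 5 classes of length, from 51.8% in the shortest (136 to 1666 bases) to 33.4% in the longest (5036 bases and over). The median log2 fold change in the authors' deposited table went over the same classes from 1.12 to -0.27. By the number of exons in the same transcript, the median was 2.11 for 192 genes of 1 exon and -0.22 for 1842 genes of 17 or more. These are descriptions across genes, which are not independent, and ribosomal protein genes are among the shortest. Chromosomes also differed: 51.5% of the 687 genes of chromosome 11 rose and 28.4% fell (median 1.07), and on chromosome 6, 32.4% of 450 rose and 50% fell (median -0.76). In C57BL/6J, from other samples, the same 2 chromosomes had the highest and the lowest autosomal median, 0.78 and -0.61.

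The same step was compared between strains on independent samples. Among 12573 genes tested in both, the difference of the log2 fold changes over the combined SE (normal test, Benjamini-Hochberg adjustment) passed the threshold for 2090, or 16.6%. Of these, 1457 were more positive in B6CASTF1 and 633 more negative. The median difference over all 12573 was 0.29, so this split depends in part on where each table has its zero. The split was not recomputed after recentring. Of 5047 genes called in both strains, 4923 (97.5%) had the same sign. The SE was larger in C57BL/6J: its median over the 7780 genes with a mean of at least 100 in both strains was 0.84, against 0.35 in B6CASTF1, in the authors' deposited tables. The strain was confounded with whatever else differed between the 2 sets of pools, and these cannot be told apart.

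**Figure D5:**
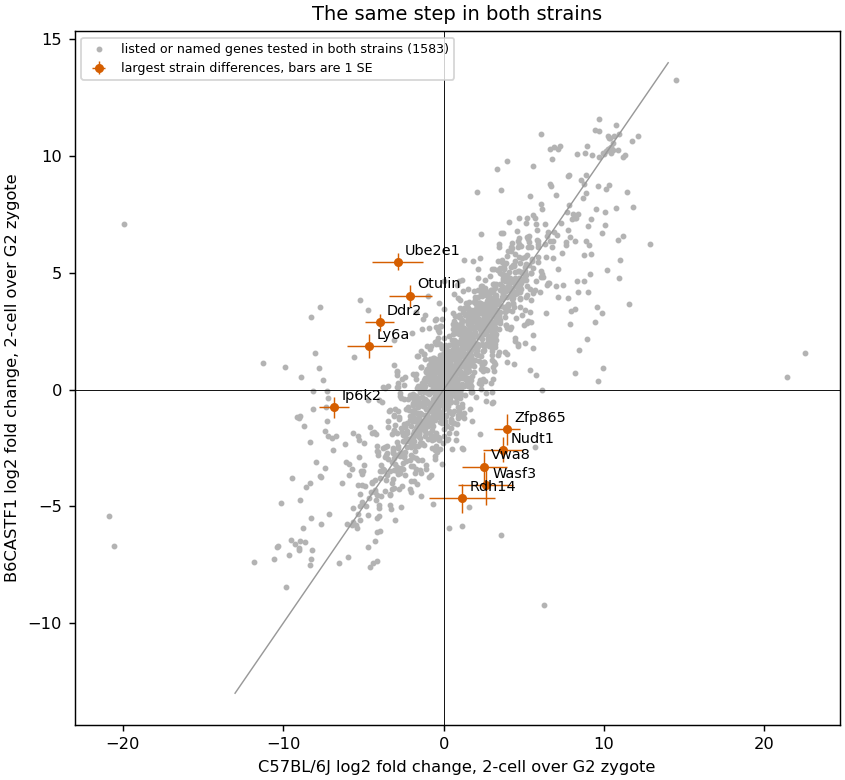
Points are listed or named genes tested in both strains, with the log2 fold change of the 2-cell step in C57BL/6J on the horizontal and in B6CASTF1 on the vertical axis, both from the authors' deposited tables; the line marks equal values, and orange points with bars of 1 SE are the 10 genes with the largest differences. Ube2e1 rose by 5.47 in B6CASTF1 and had -2.86 in C57BL/6J.

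Leaving out the 10 genes picked as extremes of the strain difference, 52 of 238 named genes tested in both strains (21.8%) differed by this test, and 230 had the same sign. Apart from those listed by name, the 238 were picked by their values in B6CASTF1, so this share does not compare with that of all genes. Kpna7 fell by 4.73 in B6CASTF1 and 8.96 in C57BL/6J, Dnajb4 fell by 5.90 and fell by 8.78, Casp8 fell by 6.85 and fell by 9.01, and Cdc20 rose by 3.15 in B6CASTF1 against a change of 0.74, from the authors' deposited tables. Duxbl1 went from 108 to 0.18 in B6CASTF1 and from 8.62 to 671 in C57BL/6J. Nr1h3 went from 4.15 to 567 in B6CASTF1 and from 43.5 to near 0 in C57BL/6J. Nr5a2 differed by 1.05 ± 0.80 (SE of the difference; adjusted p = 0.42, normal test on the authors' DESeq2 values), Zscan4d by -0.75 ± 1.37 and Btg4 by -0.52 ± 0.35, none past the threshold. Those that did differ among the 20 genes listed by name were Obox3, which rose by 8.73 in B6CASTF1 and 6.71 in C57BL/6J, Dnmt1, which fell by 4.27 and 2.81, and Klf5, which rose by 4.76 and 10.95, from the authors' deposited tables. Klf5 had a low level of 0.193 in C57BL/6J G2 zygotes and 382 in 2-cell embryos. The largest differences among genes at 10 or more at both stages of both strains were those of Ube2e1, a ubiquitin-conjugating enzyme, Ddr2, a collagen receptor, Ly6a, a surface antigen also called Sca-1, Otulin, a deubiquitinase of linear chains, and Ip6k2, an inositol phosphate kinase, on the side of B6CASTF1. Ube2e1 was at 155 and 6902 in B6CASTF1 and at 329 and 45.4 in C57BL/6J. Ddr2 went from 129 to 951 and from 278 to 17.5. Otulin went from 66.8 to 1089.6 and from 246 to 58.8. On the other side stood Wasf3, an actin regulator, Nudt1, which hydrolyses oxidized nucleotides, Vwa8, Rdh14, a retinol dehydrogenase, and Zfp865. Nudt1 went from 411 to 69 in B6CASTF1 and from 53.7 to 705 in C57BL/6J.

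Some genes had no p-value although they were counted. The authors' deposited table leaves the p-value of 78 such genes empty, 61 of them with a positive log2 fold change, and 25 of the 26 with a mean of at least 100 were positive. Ctsl, a lysosomal protease, had implied levels of 95.5 and 75355, Pramel4 of 60.9 and 23745, Amd1, of polyamine synthesis, of 236 and 7128, and Kdm3a, an H3K9 demethylase, of 25.7 and 2480. They enter none of the counts above. DESeq2 by default leaves out the p-value of a gene in which a sample stands apart from its group. That check does not cover a group of only 2 samples, such as the 2-cell embryos here.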

How the data were processed

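Polyadenylated RNA was measured by Smart-seq2 in pools of 10 to 15 oocytes or embryos. The submitters' processing notes name bcl2fastq, kallisto, TopHat, Picard and DESeq2, and the build mm10, without giving the role of each. The authors named DESeq2 1.18.1 in the names of their tables. The deposited columns, per the file headers, are a mean normalized count, the log2 fold change (plain and shrunken), its SE, the Wald statistic, which is a score, and p-values before and after adjustment. The 5 deposited tables hold 0 columns of per-sample values, so sample depth is unknown, and precision was read from the SE, with a median of 0.40 above a mean count of 100 and 2.08 for tested genes below it. For the 1460 genes at 1000 or more in every B6CASTF1 stage, that SE was 1.12 times the SE of the G2 against G1 step (median).

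Calls were an adjusted p under 0.05. Stage levels were solved from the strain's mean count and fold changes, weighted by samples per stage. The strain difference used a normal test on the difference of log2 fold changes, with Benjamini-Hochberg adjustment. It was also run on simulated fold changes drawn with the deposited SEs, which cannot show whether those SEs are right. The members, the 41 gene lists and the 10 motifs were chosen with earlier results of these data known. Named genes were: the 10 highest and 10 lowest log2 fold changes at a mean of at least 100 and a level of at least 10 in both stages, without predicted genes; the 10 highest levels among genes gained from, and lost to, under 10; the 5 largest rises and falls in level; in each list the 3 changed members with the smallest p and up to 3 that moved against the list; 20 genes listed by name; and the 5 largest strain differences each way. Other members named in the text were chosen after their values were seen. Annotation was GENCODE M21 (23379 symbols matched); promoter windows were RefSeq GRCm38.p6. Alternatives were stricter thresholds, count filters, recentring, SE times 1.5, shrunken values and leaving out predicted genes. Computing used scipy 1.17.1, pandas 2.3.3, numpy 2.4.6 and matplotlib 3.10.9 under Python 3.11.15.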

Additional observations from a re-analysis of the deposited data

Results flagged for a closer look

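The step from G2 zygote to 2-cell embryo differed between B6CASTF1 and C57BL/6J by a normal test on the authors' DESeq2 values, with Benjamini-Hochberg adjustment over the 12573 genes shared by both tables, for 62 named genes, 13 of them listed by name or as extremes of this difference. The values are log2 fold changes in B6CASTF1 minus those in C57BL/6J. Klf5 differed by -6.19 ± 1.94 (SE), Dnmt1 by -1.47 ± 0.41 and Obox3 by 2.02 ± 0.62. The 5 extremes toward B6CASTF1 were Ube2e1 at 8.33, Ddr2 at 6.87, Ly6a at 6.48, Otulin at 6.09 and Ip6k2 at 6.06. Those toward C57BL/6J were Wasf3 at -6.71, Nudt1 at -6.29, Vwa8 at -5.83, Rdh14 at -5.80 and Zfp865 at -5.65. Adjusted p-values, each from the authors' DESeq2 values, ran from 2.22e-10 for Ddr2 to 0.043 for Rdh14 within the 10 extremes, which were picked for their size. Among genes named by their lists or by the size of their change, 49 more differed. Of these, the 16 that rose in B6CASTF1 were all more positive there. Because these genes were named by their values in B6CASTF1, larger changes in that strain were favoured in advance. The ribosomal and folding genes among them were Rps19 at 3.14, Mrpl43 at 3.01, Rplp0 at 1.29, Hspa8 at 1.89 and Cct3 at 1.46. The chromatin, splicing and cell cycle genes were Ruvbl1 at 2.05, H2afz at 1.55, Snrpc at 1.79, Srsf5 at 0.90, Smc3 at 1.47, Cdc20 at 2.42 and Xpo1 at 1.37, and the stage markers were Dppa5a at 1.95, Fbxo15 at 1.73 and Sp110 at 1.48. The nuclear receptor Nr1h3 differed by 26.99, against a level near 0 in C57BL/6J 2-cell embryos, where a fitted value is no measure of size. Fallen genes with a smaller fall in B6CASTF1 were Dpy19l1 at 4.44, Kpna7 at 4.24, Olfr976 at 3.62, Lcp2 at 3.09, Dnajb4 at 2.87, Casp8 at 2.16, Fam90a1a at 2.13, Pttg1 at 1.57, Dld at 1.54 and Hsp90aa1 at 0.79. The other 23 fell in B6CASTF1 and were more negative there. Duxbl1 differed by -15.51, with levels under 10 on one side in each strain. Chromatin and replication genes of this group were Uhrf1 at -2.35, Zfp57 at -1.80, Npm2 at -0.88, Ncor1 at -2.21, Orc5 at -2.34, Timeless at -2.33, Taf3 at -1.42 and Med28 at -1.38. Translation, turnover and metabolic genes were Mrps31 at -2.80, Mrpl35 at -2.34, Psma7 at -1.38, Cnot6l at -1.02, Atg5 at -0.91, Me1 at -2.16 and Dpys at -3.18, and the rest were Arpc1b at -2.64, Nup37 at -2.09, Sclt1 at -2.05, Trp53inp1 at -2.05, Yap1 at -1.58, Zbed3 at -1.31 and Mdm4 at -0.67. Of all genes tested in both strains, 16.6% passed.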

How the results depend on the processing

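Rises and falls over all genes stayed within 1.5 times their counts of 5346 and 4321 under 9 of 10 alternatives; with Bonferroni adjustment they were 2885 and 2520. The 2090 strain differences became 1287 at an adjusted p under 0.01, 500 with Bonferroni adjustment and 490 with SE enlarged 1.5 times. Named genes were recomputed under 5 alternatives: of 259, 4 lost the call at an adjusted p under 0.01 (Izumo1, Prm2, Tcstv1 and Zfp865), 5 with SE enlarged 1.5 times (the same 4 and Yap1), and Dux gained it on recentring by 0.21. Of 82 list counts, 2 to 4 moved by over 1.5 times under each of the 4 alternatives computed for lists, among them blood and oviduct markers, with 4 in place of 7 rises. No paired analysis was possible because the tables have no per-sample columns and the labels give these groups no shared replicate numbers; for the same reason leaving out a replicate was not run, so whether 1 of the 2 pools of 2-cell embryos decides a call is unknown. Genes under a mean of 100 have a median SE of 2.08, so only changes of several log2 units could be called there.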
